A study of Rattus norvegicus with 12 samples.

Results

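The insulin-like growth factor (IGF) genes described here are 10 genes. They are the ligands Igf1 and Igf2, the receptor Igf1r, and the 7 binding proteins Igfbp1 to Igfbp7. The members were chosen by name, from the RefSeq accession of each probe, though with earlier results of these data known. They made up 10 of the 14919 gene symbols on the array and had 12 of its 30367 probes. All 12 probes were well above background on each of the 12 arrays, so no member was lost to a filter on dim probes.

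Lung RNA was measured in 12 male Sprague-Dawley rats aged 8 to 12 weeks, 3 in each of 4 groups, with 1 single-colour Agilent array per rat. Control rats had neither exposure. CS + LPS rats, the model of chronic obstructive pulmonary disease (COPD), inhaled cigarette smoke (CS) and received lipopolysaccharide (LPS), the endotoxin of Gram-negative bacteria, into the trachea. CS + LPS + NaHS rats had the same exposure and also NaHS, a salt that releases hydrogen sulfide (H2S). CS + LPS + PPG rats had the same exposure and also PPG (propargylglycine), a blocker of CTH, the enzyme cystathionine gamma-lyase that forms H2S. All exposed rats had both smoke and LPS, and no rats were given NaHS or PPG without the exposure, so the parts of these agents cannot be told apart. The RNA came from a whole left upper lobe, and in such bulk samples fewer cells of a type and less RNA per cell cannot be told apart. Values are background-corrected intensities on the log2 scale, set to a common 75th percentile, and a difference of 1 is a change of 2-fold.

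IGF1 and IGF2 are small secreted proteins that act mainly through the receptor IGF1R, a tyrosine kinase whose signal runs through IRS proteins, phosphatidylinositol 3-kinase and AKT to growth and survival. The 6 high-affinity binding proteins, IGFBP1 to IGFBP6, hold the ligands outside the cell and can block or deliver them, and IGFBP7 binds IGFs only weakly. In lung, macrophages and fibroblasts are known sources of IGF1, and fibroblasts, smooth muscle, endothelium and epithelium each release binding proteins.

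The promoters of Igf1, Igfbp2 and Igfbp3 are shown because the results turn on these 3 genes. Each window runs from 250 bases before to 50 bases after the start of the gene in RefSeq, on build GRCr8, written 5′ to 3′ on the strand of the gene. Capitals mark matches to the motifs searched.
Igf1 promoter (chr7:24172282-24172581, + strand): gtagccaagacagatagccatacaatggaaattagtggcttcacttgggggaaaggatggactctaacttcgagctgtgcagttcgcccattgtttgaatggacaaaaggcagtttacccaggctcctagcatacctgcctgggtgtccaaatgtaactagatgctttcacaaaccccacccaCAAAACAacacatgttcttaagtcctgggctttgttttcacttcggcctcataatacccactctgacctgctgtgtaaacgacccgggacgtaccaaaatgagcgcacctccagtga
Igfbp2 promoter (chr9:81864561-81864860, + strand): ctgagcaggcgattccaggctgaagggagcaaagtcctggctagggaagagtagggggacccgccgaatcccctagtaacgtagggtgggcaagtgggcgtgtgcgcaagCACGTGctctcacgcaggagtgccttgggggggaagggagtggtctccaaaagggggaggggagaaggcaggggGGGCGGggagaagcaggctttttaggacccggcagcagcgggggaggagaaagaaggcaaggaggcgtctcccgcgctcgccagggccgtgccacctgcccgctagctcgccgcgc
Igfbp3 promoter (chr14:86277895-86278194, - strand): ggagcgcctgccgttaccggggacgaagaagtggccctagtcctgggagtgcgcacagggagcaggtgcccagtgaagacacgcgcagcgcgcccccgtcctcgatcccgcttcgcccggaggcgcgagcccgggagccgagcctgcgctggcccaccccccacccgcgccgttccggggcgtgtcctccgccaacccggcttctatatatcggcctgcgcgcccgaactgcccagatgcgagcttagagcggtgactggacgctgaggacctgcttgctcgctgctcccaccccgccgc
All 10 members had a window in the RefSeq table, 11 in all because Igf2 had 2. Both strands were searched for 8 motifs, namely the TATA box (TATAAA), the GC box (GGGCGG), the CCAAT box (CCAAT), the AP-1 element (TGANTCA), the forkhead element (GTAAACA), the STAT5 element (TTCNNNGAA), the E-box (CACGTG) and the core of the insulin response element (CAAAACA). In the Igfbp2 window, a GC box began at base 185 and an E-box at base 111. In the Igf1 window the only match was the insulin response element core, at base 184. None of the 8 motifs was found in the Igfbp3 window, which says only that these letters are not there. Over all 33469 windows of the same length, 33.1% held a GC box, 6.42% the E-box and 6.28% the insulin response element core. The GC box was found in 5 of the 11 windows of the members and the insulin response element core in 2 (Igf1 and Igfbp1). The G and C content was 66.7% for Igfbp2, 71.7% for Igfbp3 and 48.3% for Igf1, against a median of 51.7% over all windows. Igfbp2 and Igfbp5 are next to each other among the coding genes of chromosome 9, and Igfbp1 and Igfbp3 are next to each other on chromosome 14.

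2 facts about the arrays touch most values. The 3 CS + LPS arrays and control replicate 3 were on 1 slide, and the other 8 arrays were on a second slide, so the differences of the NaHS and PPG groups from the CS + LPS group cannot be told apart from a difference between slides except through control replicate 3. That array stood apart. Over all detected probes it correlated with the other arrays at Pearson's r of 0.9365 to 0.9565, while the other 11 arrays correlated among themselves at 0.9754 or more. The summed level of heart muscle markers (Myh6, Myl7, Tnnt2 and Actc1) was 16.40 on control replicate 3 and 12.78 and 12.61 on control replicates 1 and 2. It ran from 13.62 to 15.62 in CS + LPS, from 13.32 to 15.69 with NaHS and from 15.24 to 16.03 with PPG. Since control replicate 3 stood apart, the main values against control are also given without that rat. Control replicates 1 and 2, which are left then, are not on the slide of the CS + LPS arrays. Thus every difference of CS + LPS from control without control replicate 3 cannot be told apart from a difference between slides. The NaHS and PPG arrays share a slide with control replicates 1 and 2. With slide as a term in the fit, the difference of CS + LPS from control is that from control replicate 3 alone, 1 rat, and 41.6% of all detected probes passed the adjusted test there. Every difference was tested with limma on all 12 arrays and 21239 detected probes. "Rose" and "fell" are used where the Benjamini-Hochberg adjusted p was under 0.05, and the study's own rule (at least 2-fold and an unadjusted p under 0.05) is given beside it.

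In the CS + LPS group, 2 binding proteins stood lower than in control. Igfbp3 fell by more than 2-fold, and Igfbp2 was lower by about as much, with 1 of its 2 probes passing the adjusted test, a call that 10 of 12 fits without 1 rat did not keep. Igf1 stood higher and did not pass. With the adjusted p, 1 of the 10 members was called (Igfbp3, lower), against 2.02% of all detected probes and 1.2% for lower values alone. By the study's rule 3 members were called, all lower (Igfbp2, Igfbp3 and Igfbp5), against 4.56% of all detected probes and 2.91% for lower values alone. The median difference over the 10 members was -0.21, and over all detected probes it was -0.04.

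In the CS + LPS + NaHS group, no member passed the adjusted test of limma against control, where 0.0989% of all detected probes did, and 4 members had an unadjusted p under 0.05, a level that 17.1% of all detected probes reached. By the study's rule 1 member, Igfbp2, was lower, against 2.67% of all detected probes and 1.37% for lower values alone. In the CS + LPS + PPG group, Igfbp2 and Igfbp3 fell against control by the adjusted test, against 4.64% of all detected probes and 2.03% for lower values alone. By the study's rule 1 member, Igfbp2, was lower there, against 4.38% and 2.06% for lower values alone. The median difference over the 10 members was -0.14 with NaHS and -0.45 with PPG, and over all detected probes it was 0.0038 and -0.01. These 3 comparisons share the same 3 control rats.

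**Figure D1:**
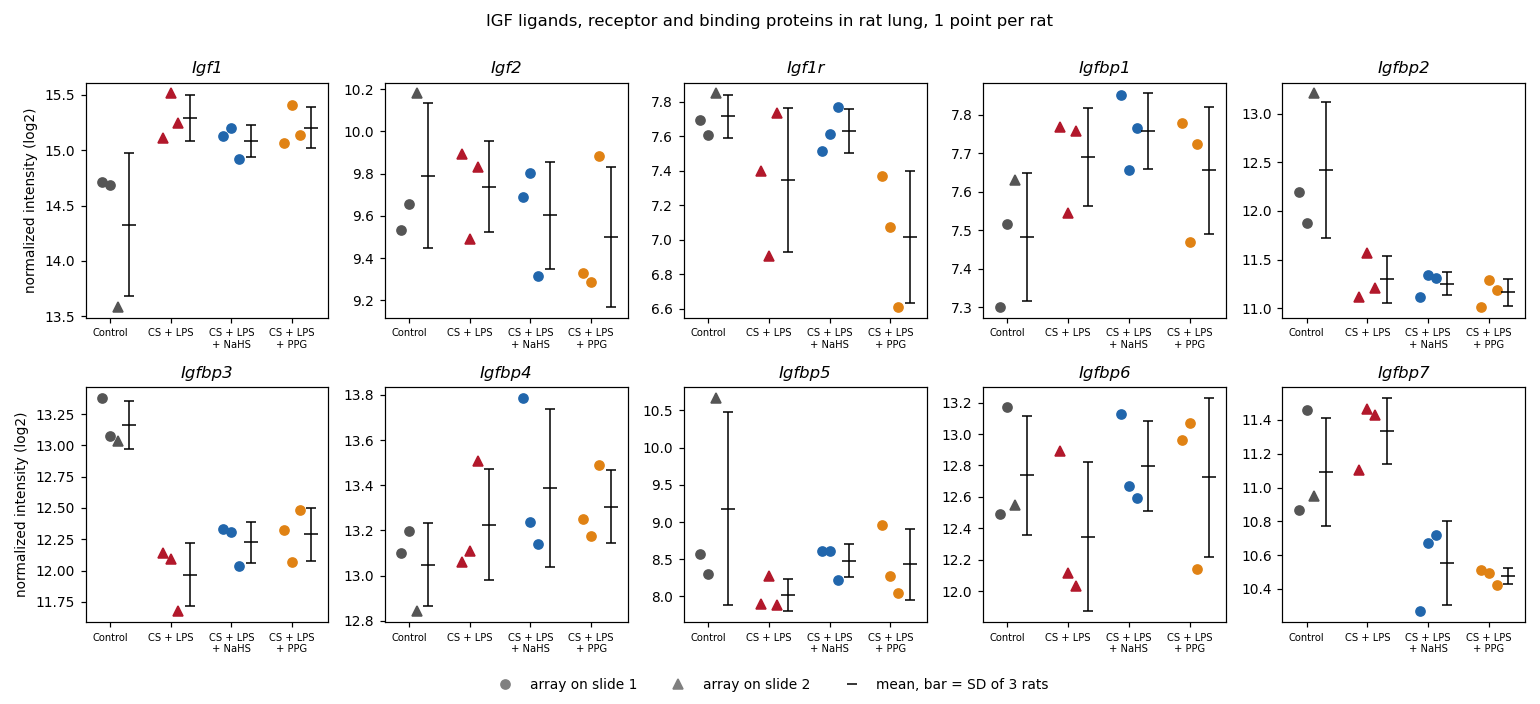
Normalized intensity (log2) of the 10 IGF genes, most intense probe, with 1 point per rat (circle, slide 1; triangle, slide 2) and the mean with a bar of 1 SD of 3 rats beside each group; each panel has its own scale. Igfbp3 lies at 13.04 to 13.38 in the 3 control rats and at 12.48 or less in the 9 exposed rats, and the control triangle (replicate 3) is the highest point for Igfbp2 and Igfbp5 and the lowest for Igf1.

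Igf1 encodes the ligand that growth hormone induces in liver and that many tissues also make for local use. Its most intense probe read 14.72, 14.68 and 13.59 in the control rats and 15.11, 15.51 and 15.25 in the CS + LPS rats. It read 15.13, 15.20 and 14.92 with NaHS and 15.06, 15.41 and 15.14 with PPG. All 9 exposed rats were above all 3 control rats, and the exposed groups overlapped each other. The difference from control was 0.96 ± 0.27 (SE, adjusted p = 0.0828) in the CS + LPS group, 0.75 ± 0.27 (adjusted p = 0.217) with NaHS and 0.88 ± 0.27 (adjusted p = 0.0761) with PPG, all by limma and none called. Without control replicate 3, where Igf1 was lowest, these differences were 0.59, 0.38 and 0.50. With slide as a block, and so against control replicate 3 alone, the CS + LPS difference was 1.70. A second Igf1 probe differed from control by 0.99, 0.85 and 0.93 in the same order (0.57, 0.43 and 0.52 without control replicate 3), also with no call. In the order of group means, CS + LPS came first, followed by PPG, NaHS and control, and no neighbouring pair was called different.

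Of the 4 detected macrophage markers of 6 listed (Cd68, Mrc1, Cd163 and Adgre1), 1 passed the adjusted test higher in CS + LPS, and 1 stood lower. Their summed level, most of which was Cd68, lay at 12.18 to 13.11 in control rats. It lay at 13.75 to 14.31 in CS + LPS rats, at 13.78 to 14.10 when NaHS was given and at 13.69 to 14.02 when PPG was given, with no overlap between control and exposed rats. Cd68, a lysosomal protein of macrophages, rose by 1.39 in CS + LPS and by 1.33 with PPG against control (limma, adjusted p = 0.0301 and 0.0275; 1.13 and 1.07 without control replicate 3), and it stood 1.42 above control with NaHS (adjusted p = 0.089). Cd163, a haemoglobin scavenger receptor, went the other way, at -1.39 in CS + LPS (adjusted p = 0.162, limma), which met the study's rule. Marco was not detected. On control replicate 3, where Igf1 was lowest, the macrophage sum was also lowest (12.18). The part of macrophage number in the Igf1 values was not tested.

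Igf2 encodes the ligand that is abundant in the fetus and low in most adult tissues. It read 9.53, 9.66 and 10.18 in control, 9.89, 9.49 and 9.83 in CS + LPS, 9.69, 9.80 and 9.32 with NaHS and 9.33, 9.29 and 9.88 with PPG. All groups overlapped. The difference between CS + LPS and control was -0.05 ± 0.23 (SE), with a 95% interval from -0.55 to 0.45. This interval, from the fit with all control rats and no slide term, leaves out a change of 1.5-fold. Over the 6 comparisons of that fit the size of the Igf2 difference was at most 0.29. Without control replicate 3 its sign against control turned for CS + LPS (0.14 ± 0.22, SE) and for NaHS (0.01). With slide as a block, and so against control replicate 3 alone, the CS + LPS difference was -0.44. No interval was computed for these other fits, so they are not read as leaving out a change of 1.5-fold.

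Igf1r encodes the receptor. It read 7.69, 7.61 and 7.85 in control, 7.40, 6.91 and 7.74 in CS + LPS, 7.51, 7.62 and 7.77 with NaHS and 7.37, 7.07 and 6.61 with PPG. The 3 PPG rats were below all control rats and below all NaHS rats, while CS + LPS overlapped both. The PPG group differed by -0.70 ± 0.23 (SE, adjusted p = 0.0869, and -0.63 without control replicate 3) from control and by -0.61 ± 0.23 (adjusted p = 0.563) from the NaHS group in limma, and neither passed. Between the NaHS and PPG groups no other member had an unadjusted p under 0.05, a level that 8.74% of all detected probes reached there. The NaHS and PPG groups were on 1 slide, so the slide does not enter that comparison.

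Igfbp3 encodes the main carrier of IGFs in blood, and it is also released by lung fibroblasts and endothelium. It read 13.38, 13.07 and 13.04 in control and 12.14, 12.09 and 11.68 in CS + LPS. With NaHS it read 12.33, 12.31 and 12.04, and with PPG 12.32, 12.07 and 12.48. No exposed rat reached a control rat, and the 3 exposed groups overlapped. Igfbp3 fell by 1.19 ± 0.17 (SE) in the CS + LPS group, or 2.29-fold (adjusted p = 0.0155), and by 0.87 ± 0.17, or 1.83-fold, with PPG (adjusted p = 0.0311). The difference with NaHS was -0.94 ± 0.17 and did not pass (adjusted p = 0.0982, limma, with an unadjusted p of 0.00024). Control replicate 3 was the lowest control here, close to replicate 2. Without it the differences were -1.26 for CS + LPS and -0.94 for PPG, and both calls held (adjusted p = 0.0179 and 0.0359, limma). The NaHS difference then also met the study's rule (adjusted p = 0.0987, limma). In that fit the CS + LPS difference lies wholly across slides. Against control replicate 3 alone, on the slide of the CS + LPS arrays, the difference was -1.07, which passed with slide as a block (adjusted p = 0.00646) and did not within slide 2 (adjusted p = 0.0524).

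Leaving out CS + LPS replicate 3, where Igfbp3 was lowest, gave -1.05, and the call in CS + LPS was lost (adjusted p = 0.0549, unadjusted p = 0.00015, limma). In that fit the share of all detected probes called went from 2.02% to 0.137%. The call with PPG held in 7 of 12 fits that each left out 1 rat. The 60-base probe lies at chr14:87959244-87959303 on the minus strand, on the build named in the array headers (rn4). Its neighbour Igfbp1 gave no call.

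Igfbp2 encodes a binding protein made in lung by alveolar epithelium and fibroblasts, which prefers IGF2. Its most intense probe read 12.19, 11.87 and 13.21 in control and 11.11, 11.57 and 11.20 in CS + LPS. With NaHS it read 11.12, 11.34 and 11.31, and with PPG 11.01, 11.29 and 11.19. All 9 exposed rats were below all control rats, and the highest control value was that of replicate 3. The difference was -1.13 ± 0.28 (SE, 2.18-fold, adjusted p = 0.0669) in CS + LPS, -1.17 ± 0.28 (2.25-fold, adjusted p = 0.139) with NaHS and -1.26 ± 0.28 (2.39-fold, adjusted p = 0.0415) with PPG, by limma. The study's rule was met in all 3 comparisons. The second probe read 11.61, 11.36 and 12.50 in control against 10.53, 10.93 and 10.50 in CS + LPS. On this probe Igfbp2 fell by 1.17 ± 0.25 in CS + LPS and by 1.22 ± 0.25 with PPG (limma, adjusted p = 0.045 and 0.0342). These calls of the second Igfbp2 probe held in 2 and 5 of 12 fits that each left out 1 rat, and without control replicate 3 the differences were -0.83 and -0.88. With quantile normalization the call in CS + LPS was lost (adjusted p = 0.0563), and without a filter on dim probes both were lost (adjusted p = 0.0745 and 0.0722).

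Without control replicate 3, the differences of the most intense Igfbp2 probe were -0.74, -0.78 and -0.87 for CS + LPS, NaHS and PPG, all under 2-fold, with an adjusted p of 0.0649, 0.133 and 0.0323. Thus the direction was that of the full set, and the size was smaller. For CS + LPS this fit compares arrays across slides, while the NaHS and PPG arrays share a slide with the control arrays left. Within the slide of control replicate 3 the difference of CS + LPS was -1.91. The call with PPG held in 3 of 12 fits that each left out 1 rat. The probes lie at chr9:71993843-71993902 and chr9:71994131-71994190 on the plus strand (rn4).

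**Figure D2:**
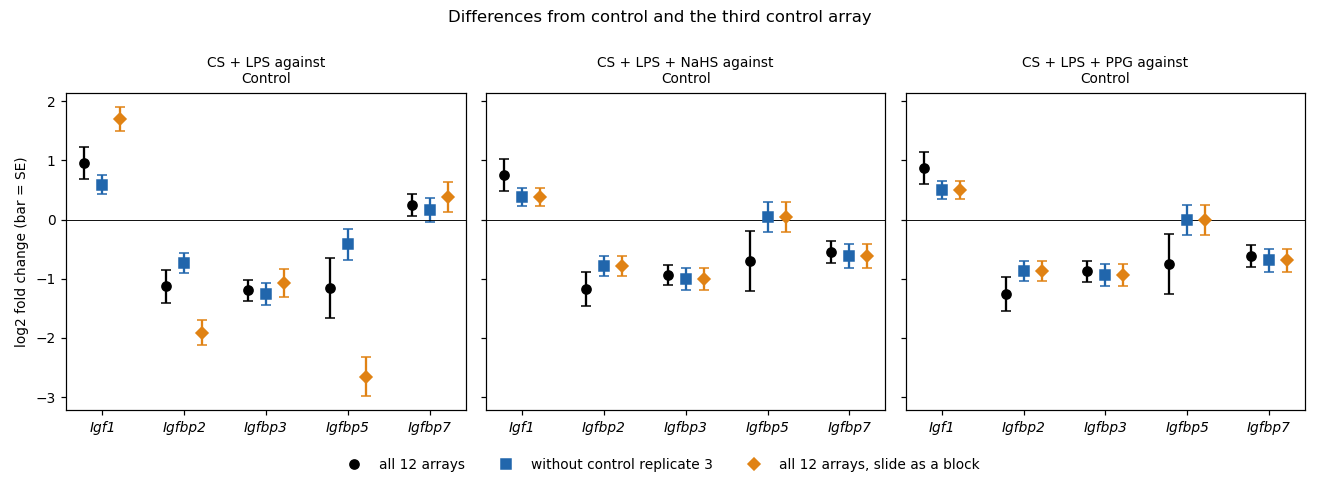
Log2 fold change against control (bar, SE) of 5 IGF genes in each exposed group, for all 12 arrays (circle), without control replicate 3 (square), and with slide as a block (diamond). Igfbp3 stays between -0.87 and -1.26 in all 9 fits, whereas the Igfbp5 value in CS + LPS runs from -0.42 without control replicate 3 to -2.65 with slide as a block.

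Igfbp5 encodes a binding protein of the extracellular matrix. It read 8.57, 8.30 and 10.67 in control, 7.90, 8.27 and 7.89 in CS + LPS, 8.62, 8.61 and 8.22 with NaHS and 8.96, 8.27 and 8.05 with PPG. Control replicate 3 stood above every other rat, of which the highest read 8.96. The CS + LPS difference of -1.16 ± 0.51 (SE) met the study's rule with an unadjusted p of 0.0431 (adjusted p = 0.185, limma). It was -0.42 without control replicate 3 and no longer met it. The differences of the NaHS and PPG groups from control went from -0.70 and -0.75 to 0.05 and -0.01 without that rat. On control replicate 3 the summed heart muscle level was the highest of all 12 (16.40). It was 16.03, 15.24 and 15.91 in the 3 PPG rats, where Igfbp5 read 8.96, 8.27 and 8.05. In NaHS replicate 2 and CS + LPS replicate 1 it was 15.69 and 15.62, with Igfbp5 at 8.61 and 7.90. The part of heart tissue in the Igfbp5 values was not tested.

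Igfbp7 encodes a secreted protein of vessels that binds IGFs weakly. It read 10.87, 11.46 and 10.95 in control, 11.11, 11.47 and 11.43 in CS + LPS, 10.27, 10.67 and 10.72 with NaHS and 10.51, 10.49 and 10.42 with PPG. Here the NaHS and PPG rats were all below both the control and the CS + LPS rats, which overlapped each other. Against CS + LPS the difference was -0.78 ± 0.19 (SE, 1.72-fold, adjusted p = 0.114) with NaHS and -0.86 ± 0.19 (1.81-fold, adjusted p = 0.0941) with PPG. Against control it was -0.54 ± 0.19 (adjusted p = 0.21) with NaHS and -0.62 ± 0.19 (adjusted p = 0.0737) with PPG. None of the 4 passed in limma. Against the 2 control rats on the slide of the treated rats the difference was -0.61 with NaHS and -0.69 with PPG, while the differences from CS + LPS lie across slides and cannot be told apart from them. With slide as a block the difference from CS + LPS with PPG was -1.08 and passed (adjusted p = 0.0406), and that with NaHS did not (adjusted p = 0.0515), by limma.

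The cells that release Igfbp7 include endothelium. The summed level of the 6 detected endothelial markers of 7 listed lay at 16.89 to 16.99 in control rats and at 16.73 to 16.91 in CS + LPS rats. It lay at 16.76 to 16.93 when NaHS was given and at 16.65 to 16.91 when PPG was given. Against control 2 of the 6 were higher in CS + LPS and 3 with NaHS and with PPG, and none of those passed the adjusted test, with Emcn, a sialomucin of vessels, highest in CS + LPS at 0.99 (adjusted p = 0.104). Cdh5, the cadherin of endothelial junctions, stood 1.08 above control and 1.45 above CS + LPS with NaHS, which met the study's rule (adjusted p = 0.147 and 0.061). Of the markers that stood lower, Tek, the angiopoietin receptor, fell by 0.77 in CS + LPS (adjusted p = 0.0392) and Pecam1, an adhesion protein of vessel walls, fell by 0.82 with PPG (adjusted p = 0.0229), both against control in limma. The part of endothelial cells in the Igfbp7 values was not tested.

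Igfbp1, Igfbp4 and Igfbp6 gave no call in any of the 6 comparisons. Igfbp1, which encodes a binding protein that liver makes in fasting, read 7.30, 7.52 and 7.63 in control and 7.47 to 7.85 over the 9 exposed rats. Its largest difference was 0.28 (NaHS against control), and the CS + LPS difference of 0.21 was -0.04 with normexp background correction and 0.40 with quantile normalization (adjusted p = 0.115, limma). Of the 5 liver markers listed, Alb, Apoa1 and Fgb were not detected and 2 were. Ttr read 4.24 to 7.03 and Serpina1 9.07 to 10.90 over the 12 rats, with no call. Igfbp4, which encodes a binding protein that mainly blocks IGF action, read 13.10, 13.20 and 12.84 in control and 13.06 to 13.79 in exposed rats, with a largest difference of 0.34 ± 0.20 (SE, NaHS against control). Igfbp6, which encodes a binding protein with a preference for IGF2, read 12.49, 13.17 and 12.55 in control, 12.89, 12.11 and 12.03 in CS + LPS, 13.13, 12.67 and 12.60 with NaHS and 12.96, 13.07 and 12.14 with PPG. Its largest difference of means was 0.45 ± 0.31 (SE, NaHS against CS + LPS). For these 3 genes the groups overlapped, with 1 exception. All 3 NaHS rats were above all control rats for Igfbp1, by a mean of 0.28 (adjusted p = 0.327, limma), or 0.35 without control replicate 3 (adjusted p = 0.314). The differences of Igfbp4 and Igfbp6 from control without that rat ranged from -0.49 to 0.24, with no call.

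NaHS and PPG, which act on H2S in opposite ways, were each compared with CS + LPS and with each other. None of the 10 members passed either rule in these 3 comparisons in the fit without a slide term. For NaHS against CS + LPS, 0.593% of all detected probes passed the adjusted test and 1.7% the study's rule. For PPG against CS + LPS the shares were 0.523% and 2.05%. For PPG against NaHS no detected probe passed the adjusted test of limma, and 0.523% met the study's rule. In each of the 3 comparisons 1 member had an unadjusted p under 0.05, which was Igfbp7 in the first and the second and Igf1r in the last (9.67%, 10.5% and 8.74% of all detected probes). The methods' t-test gave no call for any member after adjustment, where at most 0.00471% of all detected probes passed. It also gave none by the study's rule, which 1.37%, 1.45% and 0.311% of all detected probes met in that order. The comparisons of NaHS and of PPG with CS + LPS share the 3 CS + LPS rats.

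A missed threshold does not show that the values were alike, so the intervals matter. For Igfbp3 the difference from CS + LPS was 0.26 with NaHS (95% interval from -0.13 to 0.64) and 0.32 with PPG (from -0.06 to 0.71). Both intervals leave out a return to the control level, which stood 1.19 above CS + LPS. For Igfbp2 the difference was -0.04 with NaHS (from -0.67 to 0.58) and -0.13 with PPG (from -0.76 to 0.49), which again leaves out the 1.13 that separated control from CS + LPS. These intervals take no account of the slide. With slide as a block, a fit in which control replicate 3 alone ties the slides, Igfbp2 was 1.13 higher with NaHS and 1.04 higher with PPG than in CS + LPS (adjusted p = 0.0178 and 0.0244), the opposite sign. That fit called 23% and 22.6% of all detected probes. In that fit Igf1 stood at -1.32 and -1.20 against CS + LPS (adjusted p = 0.00834 and 0.0115) and Igfbp5 at 2.70 and 2.64 (adjusted p = 0.00391 and 0.00412), with NaHS and PPG in that order. Between NaHS and PPG, on 1 slide, the difference was 0.06 (from -0.32 to 0.45) for Igfbp3 and -0.09 (from -0.72 to 0.54) for Igfbp2.

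**Figure D3:**
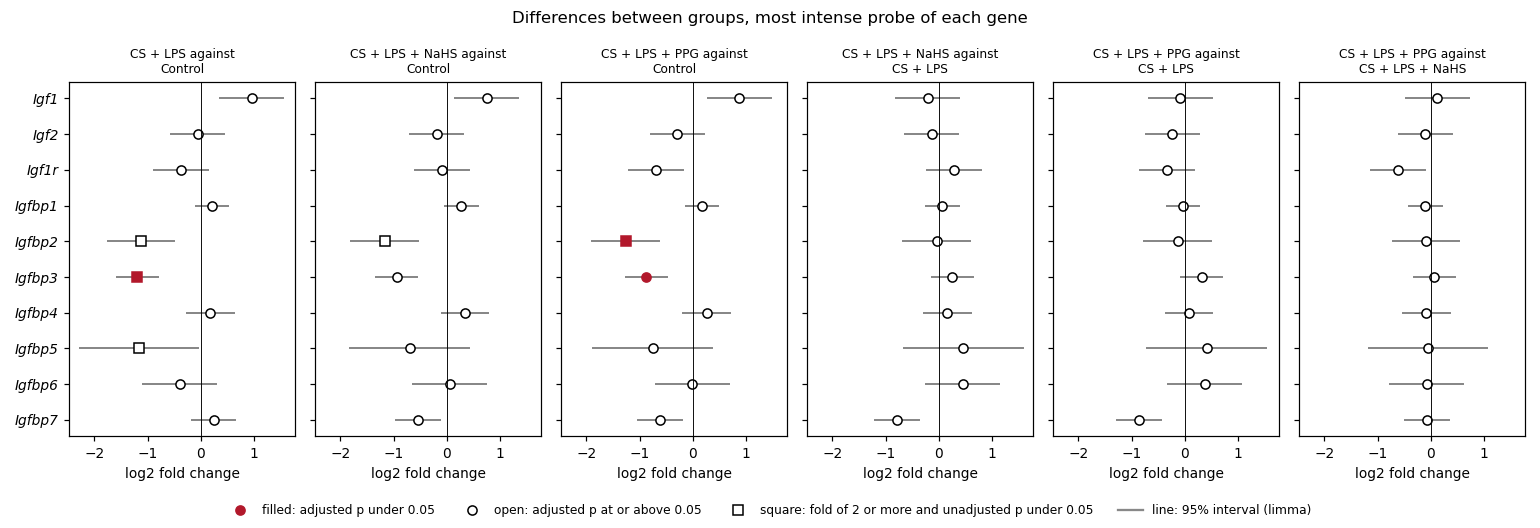
Log2 fold change of the 10 IGF genes in 6 comparisons, with 95% intervals from limma on 12 arrays; filled symbols have an adjusted p under 0.05 and squares met the study's rule. Filled symbols occur for Igfbp3 in CS + LPS and for Igfbp2 and Igfbp3 in CS + LPS + PPG, all against control and all below 0, and no symbol is filled in the 3 comparisons among exposed groups.

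Groups that did not overlap were counted as a further description. In CS + LPS against control, 1 member was higher in all 3 rats (Igf1) and 3 were lower (Igfbp2, Igfbp3 and Igfbp5), where 12.9% and 12.4% of all detected probes did so. With NaHS against control the counts were 2 higher and 3 lower (12.7% and 12.1% of probes). With PPG against control they were 1 higher and 4 lower (18.7% and 14.5% of probes). Against CS + LPS, 1 member was lower without overlap with NaHS and 1 with PPG, in both cases Igfbp7 (8.04% and 8.41% of probes). Between PPG and NaHS, Igf1r was lower without overlap (12% of probes).

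The rest of the pathway was read from lists. Of 15 genes for other receptors and the signalling chain behind IGF1R, 13 were on the array and detected, and 1 was called against control in CS + LPS. Foxo3, a transcription factor that AKT holds out of the nucleus, read 8.46, 8.14 and 8.66 in control and 7.53, 7.12 and 7.70 in CS + LPS. It fell by 0.97 ± 0.19 (SE, adjusted p = 0.0375, limma), and this call was lost without control replicate 3 (-0.85, adjusted p = 0.0687) and kept in 1 of 12 fits that each left out 1 rat. With PPG it read 7.81, 7.78 and 7.49, a difference of -0.72 that did not pass (adjusted p = 0.0566, limma). The median difference of the 13 genes was -0.28 in CS + LPS and -0.41 with PPG against control, where 11 of 13 were below 0 and none passed. Of all detected probes 49.2% were above 0 with PPG, and their median was -0.01. Irs2, an adaptor of the receptor, had the lowest value with PPG at -0.79 (adjusted p = 0.0708, limma). Neither Igf2r, which takes up and degrades IGF2, nor Insr passed a rule in any comparison.

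Of 8 genes for proteins that carry or cut binding proteins and for their inhibitors, 3 were detected (Stc1, Stc2 and Htra1) and none passed a rule. STC1 and STC2 block the protease PAPP-A, which cuts IGFBP4, and HTRA1 is itself a protease. Igfals, for a further partner of the IGF and IGFBP3 complex in blood, was on the array and not detected. In the growth hormone axis (Ghr, Jak2, Stat5a, Stat5b, Socs2 and Cish) all 6 genes were detected and none passed. Of 10 genes for relatives with the amino-terminal domain of IGFBPs, 8 were detected and none passed, with a median of -0.44 in CS + LPS. Among these, Ccn2, for connective tissue growth factor, stood at -0.76 ± 0.25 (SE, adjusted p = 0.11, limma) and Ccn4, a Wnt target, at 0.78 ± 0.30 (adjusted p = 0.151).

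Igf2bp2, for a protein that binds Igf2 and other mRNAs, read 9.28, 9.25 and 9.72 in control and 7.99, 8.16 and 7.91 in CS + LPS. It read 9.66, 9.60 and 9.14 with NaHS and 9.49, 9.83 and 9.78 with PPG. The CS + LPS rats were below all other rats, and the other groups overlapped. It fell by 1.40 ± 0.19 (SE) in CS + LPS against control (adjusted p = 0.012), and it rose by 1.45 ± 0.19 with NaHS (adjusted p = 0.00672) and by 1.68 ± 0.19 with PPG (adjusted p = 0.00233) against CS + LPS. Without control replicate 3 the first difference was -1.25 (adjusted p = 0.0155). The symbol of this probe was known only through the authors' lists of changed probes, so its probe could be named only because it was listed as changed, and its calls are no independent evidence. Its probe lies at chr11:81214322-81214381 (rn4). H19, the imprinted neighbour of Igf2, ranged from 5.20 to 8.45 over the 12 rats with no call. It read 7.37, 6.78 and 8.45 with NaHS and 5.82, 5.68 and 6.03 in CS + LPS, a difference of 1.69 across slides. That difference met the study's rule in 6 of 12 fits that each left out 1 rat. Control replicate 1 read 8.14. The H19 probe was also in the authors' lists of changed probes. Igf2bp1 was not detected.

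**Figure D4:**
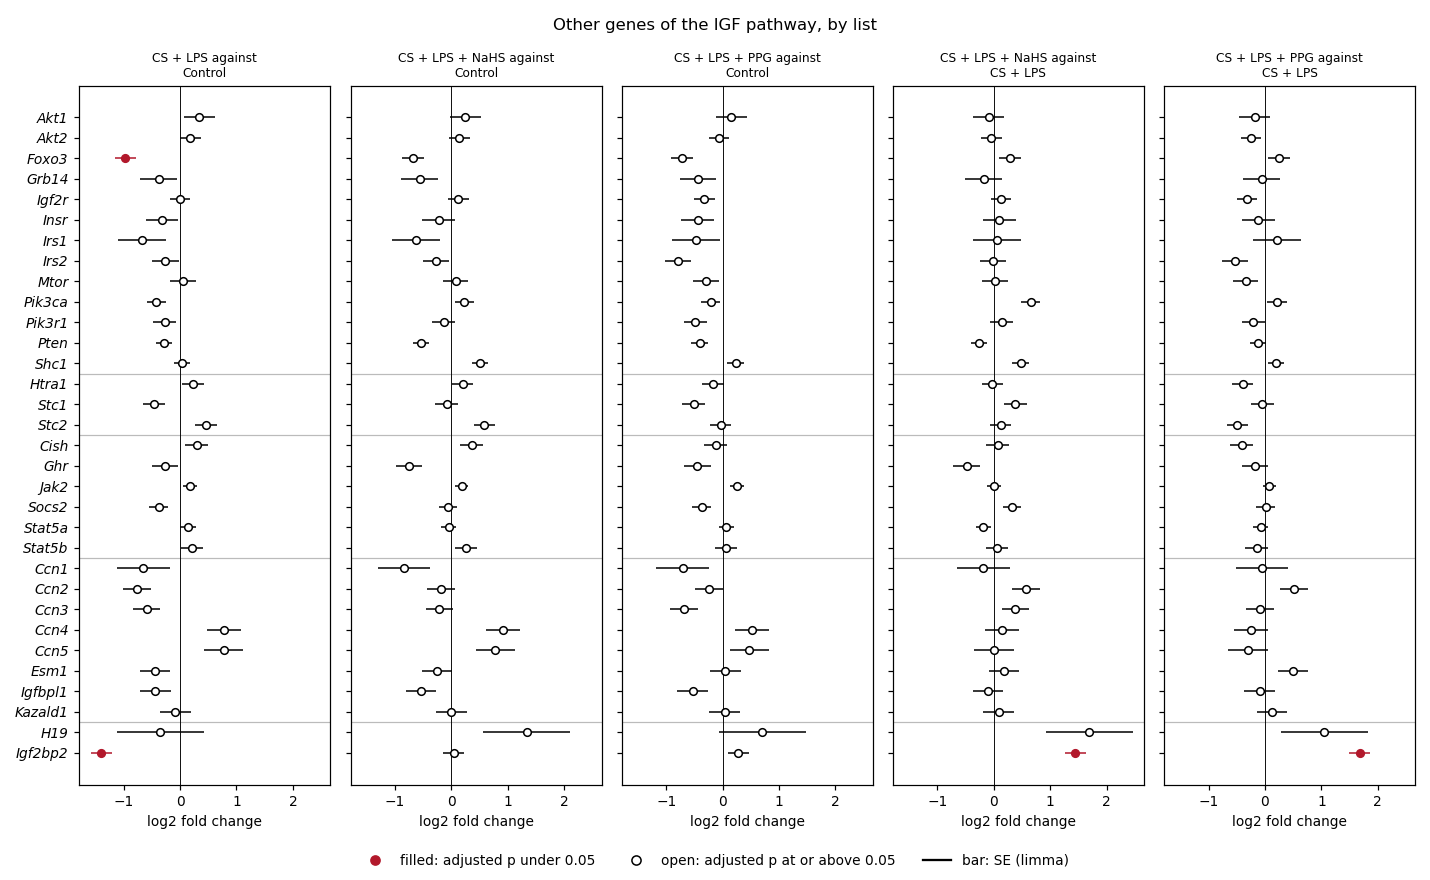
Log2 fold change (bar, SE) in 5 comparisons of 32 other genes of the IGF pathway, in 5 lists parted by grey lines (from the top, receptors and signalling, processing of binding proteins, growth hormone axis, relatives with an IGFBP domain, and Igf2 mRNA binding and imprinting). Filled symbols, with an adjusted p under 0.05, are Foxo3 and Igf2bp2 in CS + LPS against control and Igf2bp2 in both comparisons with CS + LPS.

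Markers of the other cells that the lobe could hold were summed by list. The summed level of the 7 fibroblast markers ranged from 16.71 to 17.41 over all 12 rats, and control (16.92 to 17.16) overlapped each exposed group. With PPG against control 3 of the 7 were higher and 4 lower, with a median of -0.05. Dcn, a matrix proteoglycan, rose by 1.49 (adjusted p = 0.0438, limma; 1.23 without control replicate 3, adjusted p = 0.0847), and Pdgfra, a growth factor receptor of fibroblasts, was lowest at -0.80 (adjusted p = 0.0982). For the 7 smooth muscle and pericyte markers it ranged from 15.52 to 16.03 in control rats and from 15.04 to 15.91 over the exposed rats, and the PPG rats (15.15 to 15.35) were all below the control rats. Of these, Cspg4, a proteoglycan of pericytes, fell by 1.17 in CS + LPS (adjusted p = 0.0193) and by 1.04 with PPG (adjusted p = 0.0242), and Pdgfrb fell by 0.99 with PPG (adjusted p = 0.0368), all against control in limma. Without control replicate 3 the Cspg4 calls held and that of Pdgfrb did not (adjusted p = 0.0617). The 3 detected mesothelial markers summed to 14.78 to 14.89 in control and to 14.29 to 14.64 over the 9 exposed rats, with no overlap. Taken singly, Msln did not overlap between control and exposed rats, whereas Wt1 and Krt19 did. None of the 3 passed the adjusted test in any comparison. The part of any of these cell types in the Igfbp2 and Igfbp3 values was not tested. Lung epithelium was present in every sample, since the alveolar type 2 and club markers summed to 19.76 or more and the alveolar type 1 markers to 17.78 or more.

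Neutrophil markers summed to 12.84 to 14.19 in control and 13.92 to 15.09 over exposed rats. Of the 6 neutrophil markers, 5 were higher in CS + LPS and 6 with PPG against control. Fcnb rose by 2.78 and 2.61 there (adjusted p = 0.0452 and 0.0424) and Mpo rose by 1.18 with PPG (adjusted p = 0.0438), and neither passed without control replicate 3 (adjusted p from 0.0535 to 0.0939), all in limma. Mpo also rose against CS + LPS with NaHS and with PPG (1.54 and 1.70, adjusted p = 0.0394 and 0.026, limma). It read 4.54, 5.01 and 4.77 in CS + LPS and 4.58 on control replicate 3, which share a slide. On every array of the other slide it read 5.61 or more, also in control replicates 1 and 2 (5.61 and 5.68). These Mpo differences from CS + LPS thus cannot be told apart from a difference between slides. Among the 6 alveolar type 2 and club markers, 3 were higher and 3 lower in CS + LPS against control. Lamp3 rose by 0.81 in CS + LPS and by 1.14 with PPG (adjusted p = 0.045 and 0.0206), the first of which did not pass without control replicate 3 (adjusted p = 0.0736), and Scgb1a1, the club cell secretory protein, was lowest at -0.59 in CS + LPS (adjusted p = 0.183).

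The summed level of the 3 detected fat markers of 5 listed was 12.98 to 13.45 in PPG rats and 11.99 to 12.60 in CS + LPS rats, without overlap, and control ran from 11.77 to 13.24. That of the 3 detected pancreas markers of 5 listed was 10.59 to 11.37 in NaHS rats and 8.80 to 9.14 in CS + LPS rats, also without overlap, with control at 9.47 to 10.71. Of the pancreas markers, Cel fell with PPG against control (by 2.07, adjusted p = 0.037; -1.55 without control replicate 3, adjusted p = 0.0518) and Ctrb1 rose with NaHS against CS + LPS (2.39, adjusted p = 0.0385). The part of fat or pancreas in the values of the IGF genes was not tested. By the study's rule alone, Lum, Cdh5, Wt1, Adgre1, S100a8, S100a9, Adipoq, Cfd and Cidec were also past 2-fold in at least 1 comparison. None of the proliferation or alveolar type 1 markers passed a rule.

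The genes whose pattern over the 12 arrays was most like that of each member are given as a description, among 11326 genes with a value on every array, and much of a high correlation can rest on control replicate 3. For Igf1 they were Ppt1 (Pearson's r = 0.989), Fcgr2al1 (0.987) and Fcgr2b (0.985), and r was 0.951, 0.943 and 0.935 without that rat. For Igfbp2 they were Capn10 (0.981), Rhot2 (0.964) and Kdm2a (0.961), and for Igfbp5 they were Mgat5 (0.967), Cdc14b (0.957) and Ccsap (0.957). Without control replicate 3 the Igfbp5 values were 0.799, 0.804 and 0.737. For Igfbp3 the most alike were Rapgef3 (0.945), RGD1307569 (0.938) and Jdp2 (0.938), which stayed at 0.940, 0.938 and 0.951. For Igf1r they were Fbxo46 (0.969), Pdzd2 (0.960) and Prrc2a (0.958), and for Igfbp7 they were Id3 (0.932), Ctu1 (0.888) and Wbp11 (0.884). For Igf2 they were Abo (0.891), Sdccag8 (0.874) and Sfrp2 (0.869), for Igfbp1 Gps2 (0.864), Ccr3 (0.852) and Oprm1 (0.851), for Igfbp4 Krtap5-8 (0.857), Pla2g3 (0.835) and G0s2 (0.835), and for Igfbp6 Chrnb4 (0.768), Tent5a (0.746) and Srcin1 (0.741). No member was among the 3 most alike of another member.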

How the data were processed

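RNA of 12 rat lungs was hybridized to single-colour Agilent arrays. The authors deposited the Feature Extraction 10.7.3.1 output of each array, whose processed signal is an intensity after background subtraction, and 5 lists of changed probes with log2 values per rat, of which only names, positions and, as an alternative, the log2 values were used. The fold changes and p-values of those lists were not used.

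Spots marked as outliers were left out, repeated spots were averaged as log2 values, and arrays were brought to a common 75th percentile. A probe entered the tests if some group had it well above background in its 3 rats, which 21239 of 30367 did. One limma 3.58.1 model (R 4.3.3) of the 12 arrays gave the 6 comparisons, with Benjamini-Hochberg adjustment over all kept probes. Symbols came from RefSeq accessions (17514 probes) or the authors' lists (194 probes). The most intense detected probe stands for a gene. Named genes are all members, list and marker genes past either rule, and the 3 genes most like each member. A few others were named after their values were seen (Irs2, Ccn2, Ccn4, H19, Emcn, Pdgfra, Scgb1a1). The values of list genes without control replicate 3 were chosen after seeing the data. The members and lists were chosen with earlier results of these data known. The labels do not say how the rats of a group were housed or paired, and p-values measure the spread between 3 rats per group, whose small number limits the precision. The fit was tested on simulated data. Alternatives were other scalings, backgrounds, filters, blocks, tests and leaving out each array.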

Additional observations from a re-analysis of the deposited data

How the results depend on the processing

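Among the 10 members, the fit with slide as a block moved most values. In it 4 members passed the adjusted test in CS + LPS against control, 3 with NaHS against CS + LPS and 4 with PPG against CS + LPS, while by the study's rule 3 and 4 passed in the last pair of comparisons and 0 with PPG against control. In that fit Igfbp2 turned sign against CS + LPS, at 1.13 with NaHS and 1.04 with PPG, and its second probe stood at 0.98 with PPG. Control replicate 3 alone ties the slides in this fit, which called 41.6%, 23% and 22.6% of all probes by the adjusted test in CS + LPS against control and in NaHS and PPG against CS + LPS. Within slide 1, 0 members met the study's rule with PPG against control, and within slide 2, where control is 1 rat assumed to vary like the others, 3 passed the adjusted test in CS + LPS, against 18.4% of all probes. With normexp background correction 2 passed in CS + LPS, against 4.14% of all probes. This scaling moved the median of all probes to -0.14 there and to -0.10 with NaHS against control. For PPG against control, 0 members passed the adjusted test without a filter, with the replicate block, with only the 2 groups compared, and by the methods' t-test. Of all probes 0.366%, 0.151%, 0% and 0% passed there, so these counts of 0 say little about the members. For CS + LPS against control, 0 passed with only the 2 groups compared and by the methods' t-test, where 0.0141% and 0.00471% of all probes did. By that t-test 1 member met the study's rule, against 2.09% of all probes.

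Leaving out each rat in turn, the adjusted test called 0 to 3 members in CS + LPS and 0 to 2 with PPG against control. With PPG against CS + LPS it called 0 to 1. Of all detected probes it called 0.137% to 6.1%, 0.0565% to 7.84% and 0.221% to 1.33% in that order. The study's rule called 1 to 4, 1 to 2 and 0 to 3 members in CS + LPS, NaHS and PPG against control. Of all detected probes it called 2.88% to 8.43%, 1.94% to 5.78% and 3.11% to 7.54% there. Leaving out control replicate 3 took the study's calls to 1 in CS + LPS and 0 with PPG, leaving out control replicate 2 took them to 3 with PPG and 2 with NaHS, and leaving out control replicate 1 took them to 2 with PPG. The adjusted calls became 3 without control replicate 2 and 0 without CS + LPS replicate 3 in CS + LPS, where 6.1% and 0.137% of all detected probes passed. With PPG against control they became 0 without control replicate 1, NaHS replicate 2 or any PPG rat. They became 1 without CS + LPS replicate 1 or 3 or NaHS replicate 1 or 3. Without PPG replicate 1, 2 or 3, the share of all detected probes that passed was 0.0565%, 0.104% and 0.0706%, against 4.64% with all 12 arrays. Without control replicate 2, Igfbp7 passed with PPG against CS + LPS, with an adjusted p that lay under the threshold only before rounding (0.05). The deviations of same-numbered arrays correlated between -0.31 and 0.14, and 1 of 12 arrays correlated best with its own number. That gave no sign of pairing by replicate number, which deviations within groups of 3 rats cannot exclude. The replicate block changed no other count of members by over 1.5 times. The differences of the authors' own log2 values, an alternative chosen after seeing the data, were -1.24, -0.94 and -0.91 for Igfbp3 and -1.18, -1.19 and -1.29 for Igfbp2 in CS + LPS, NaHS and PPG against control. The normexp alternative used the median signal of each spot. No alternative was left out.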
